A study of Mus musculus with 31 samples.

Results

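The genes described are 42 genes of DNA replication and the cell cycle, set down as a list of symbols and chosen by a measured value: *Pold1*, the catalytic subunit of DNA polymerase delta, was higher with fluoxetine in these same libraries. They were matched by gene symbol among the 55379 genes of the count files. Of the 42, 23 work in DNA replication, 15 in mitosis and 4 in the control of the step from G1 to S phase, and all 42 passed the filter on low counts that left 14362 genes. Mammary glands were taken on lactation day 10 from C57BL/6 dams (substrain J in the study's methods), 1 library per dam, and all 4 groups were lactating and had received daily intraperitoneal injections from embryonic day 13. The groups were breeder diet + saline (8 libraries), breeder diet + fluoxetine (7 libraries), FA diet + saline (8 libraries) and FA diet + fluoxetine (8 libraries). The breeder diet held 4 mg/kg folic acid (FA) and the FA diet 24 mg/kg, each fed from 2 weeks before mating, and fluoxetine, a selective serotonin reuptake inhibitor, was given at 20 mg/kg bodyweight. Whole glands were sequenced, so fewer cells of a type and less RNA per cell cannot be told apart in these values.

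A cell that divides first loads the Mcm helicase onto its DNA in G1 phase, copies the DNA in S phase with polymerases held by the ring-shaped clamp Pcna, and then separates the chromosomes with a spindle driven by mitotic kinases. Genes of S phase are switched on by E2F factors, and genes of mitosis later by complexes that bind the cell cycle homology region (CHR) together with CCAAT boxes. In the mammary gland the epithelium multiplies mainly during pregnancy, and in established lactation most of its cells make milk and do not divide.

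The promoters of 34 of the 42 genes were in the RefSeq promoter table of GRCm38.p6, each from 250 bases before to 50 bases after the start of the gene. The table lacked *Pole*, *Ccne2*, *Ccna2*, *Mcm4*, *Ccnd1*, *Aurkb*, *Gins2* and *Tpx2*. Those of *Pold1* and of 5 genes that hold the motifs counted are shown so that the letters behind the replication and the mitosis genes can be compared. All 6 genes are on the minus strand, each sequence is written 5′ to 3′ on the gene's strand, and capitals mark every match to E2F (TTTCCCGC, TTTGGCGC, TTTCGCGC or TTTGCCGC), CHR (TTTGAA or TTCGAA) or CCAAT, on either strand.
Pold1, chr7:44548766-44549065: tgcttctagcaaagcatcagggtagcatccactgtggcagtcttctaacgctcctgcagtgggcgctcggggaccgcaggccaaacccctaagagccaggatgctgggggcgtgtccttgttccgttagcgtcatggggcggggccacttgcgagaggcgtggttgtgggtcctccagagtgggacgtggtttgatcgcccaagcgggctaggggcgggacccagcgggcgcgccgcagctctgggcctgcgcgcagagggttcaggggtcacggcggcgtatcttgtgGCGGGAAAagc
Pcna, chr2:132253131-132253430: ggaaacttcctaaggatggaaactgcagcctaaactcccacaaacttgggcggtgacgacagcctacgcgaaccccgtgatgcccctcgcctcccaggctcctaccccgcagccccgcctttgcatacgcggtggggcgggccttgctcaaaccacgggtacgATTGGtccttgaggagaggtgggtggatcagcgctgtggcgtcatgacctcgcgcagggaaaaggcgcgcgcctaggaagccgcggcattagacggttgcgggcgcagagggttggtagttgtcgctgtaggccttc
Mcm6, chr1:128359656-128359955: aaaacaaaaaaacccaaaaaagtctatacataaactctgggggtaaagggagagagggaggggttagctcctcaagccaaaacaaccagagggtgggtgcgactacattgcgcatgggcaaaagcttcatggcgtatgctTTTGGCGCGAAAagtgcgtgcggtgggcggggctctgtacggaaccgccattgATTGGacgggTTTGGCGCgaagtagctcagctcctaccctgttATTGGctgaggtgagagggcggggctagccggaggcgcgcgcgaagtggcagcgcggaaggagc
Mki67, chr7:135716330-135716629: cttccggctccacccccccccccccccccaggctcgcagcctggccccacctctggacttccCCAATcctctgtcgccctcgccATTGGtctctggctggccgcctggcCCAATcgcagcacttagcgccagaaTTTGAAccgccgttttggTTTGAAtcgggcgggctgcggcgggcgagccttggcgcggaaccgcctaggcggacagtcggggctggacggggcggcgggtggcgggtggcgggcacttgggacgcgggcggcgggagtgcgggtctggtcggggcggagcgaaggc
Top2a, chr11:99024140-99024439: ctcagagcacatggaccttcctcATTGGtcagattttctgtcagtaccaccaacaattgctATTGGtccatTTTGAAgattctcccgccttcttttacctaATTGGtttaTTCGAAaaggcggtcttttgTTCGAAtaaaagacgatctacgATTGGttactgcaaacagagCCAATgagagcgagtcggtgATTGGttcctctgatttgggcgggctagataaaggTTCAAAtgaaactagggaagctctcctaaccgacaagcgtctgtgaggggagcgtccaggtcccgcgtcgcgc
Cdk1, chr10:69352863-69353162: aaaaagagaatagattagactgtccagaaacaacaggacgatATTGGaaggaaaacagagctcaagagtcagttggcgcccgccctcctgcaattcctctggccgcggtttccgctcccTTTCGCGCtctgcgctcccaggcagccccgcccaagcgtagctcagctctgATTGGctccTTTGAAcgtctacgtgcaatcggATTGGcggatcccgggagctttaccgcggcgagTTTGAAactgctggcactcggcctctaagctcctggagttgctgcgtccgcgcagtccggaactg

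*Pold1* had 1 E2F match, 40 bases after its start, and neither a CHR nor a CCAAT match. *Pcna* had 1 CCAAT match and no other. *Mcm6*, a helicase subunit, had 3 E2F matches, of which 2 overlapped each other, and 2 CCAAT matches. *Mki67*, which codes for the proliferation marker Ki-67, had 2 CHR and 3 CCAAT matches and no E2F match. *Top2a*, the topoisomerase that untangles DNA for mitosis, had 4 CHR and 6 CCAAT matches, and *Cdk1*, the main mitotic kinase, had 1 E2F, 2 CHR and 3 CCAAT matches.

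An E2F match stood in the promoters of 9 of the 20 replication genes (45%) and of 1 of the 12 mitosis genes (8.33%). Over all 27025 genes of the table the share was 2.605%. A CHR match stood in those of 6 replication genes (30%) and 10 mitosis genes (83.3%), against 21.7% of all. CCAAT was found for 14 replication genes (70%) and 11 mitosis genes (91.7%), against 41.1% of all. Both CHR and CCAAT were found for 5 (25%) and 10 (83.3%), against 9.65% of all. A gene counted if any of its promoters in the table held the motif, so CHR and CCAAT need not share a promoter. In *Pold2* they were in different promoters. None of the motifs was found for 2 replication genes, for *Birc5*, survivin, or for *Ccne1* and *E2f1*. A match is a run of letters and not a measured binding site, and the motifs and genes were picked with their usual regulators known.

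**Figure D1:**
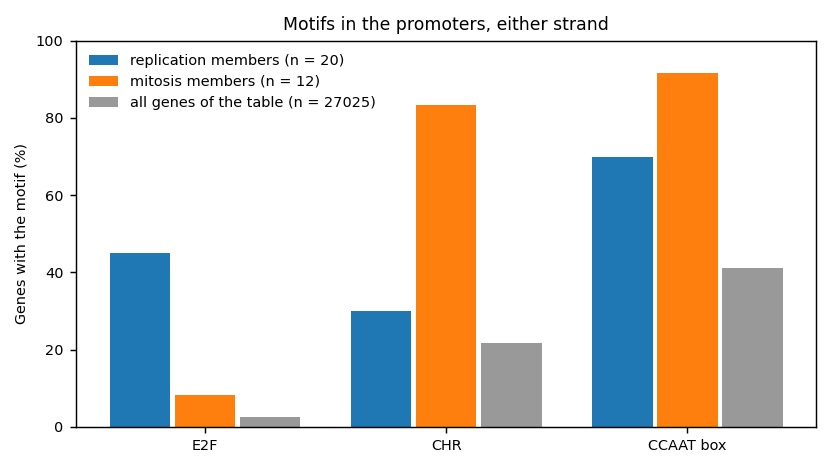
Share of genes in percent (y axis) with each motif in a promoter (x axis), for all genes of the RefSeq table, the 20 replication genes and the 12 mitosis genes. E2F was found for 45% of the replication genes and CHR for 83.3% of the mitosis genes, against 2.605% and 21.7% of all genes.

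Total counts per library lay between 15412542 and 36000439, with a median of 22299952. The 42 genes took few of them: 43395 counts over all libraries for the replication genes, 35553 for the mitosis genes and 7805 for the G1 to S genes. *Mki67* alone held 26135 counts, or 73.5% of the mitosis counts. The mean was below 20 counts per library for 13 genes, and 18 genes had a count of 0 in at least 1 library, so their values carry large counting error. *Bub1*, a checkpoint kinase of the kinetochore, was at 0 in 11 libraries, *Gins2*, a helicase subunit, in 5, and *Ccnb1*, cyclin B1, in 4. Levels are given in CPM, a gene's count scaled by its library's total over the genes past the filter times its TMM normalization factor. That factor was highest in FA diet + fluoxetine replicate 3 (3.04) and lowest in FA diet + saline replicate 11 (0.716). The CPM of a library therefore do not add up to the same total in every library. In CPM per kilobase of exon, *Pcna* was the highest of the 42 with a median of 5.16 over the 31 libraries. *Mki67* followed with 4.24, *Pold2*, the second subunit of polymerase delta, with 1.60, *E2f1*, an activating E2F factor, with 1.03, *Ccnd1*, cyclin D1, with 0.861 and *Mcm7*, a helicase subunit, with 0.816. *Pold1* ranked 13 with 0.409 CPM per kilobase. *Top2a* ranked 29 with 0.164, and *Bub1* (0.0260) and *Pola1*, the catalytic subunit of polymerase alpha (0.0240), were lowest. *Mki67* and *Top2a*, both used as markers of cycling cells, were thus far apart, and *Mki67* stood between 6.83 and 245 times above *Top2a* per kilobase in single libraries, with a median of 21.7.

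FA diet + fluoxetine replicate 3, FA diet + fluoxetine replicate 4 and FA diet + saline replicate 3 stood apart for these genes, and some of the results are also given without them. FA diet + fluoxetine replicate 3 had 39.3% of its counts in the 20 genes most abundant over all libraries. In the other libraries that share was 60.5% to 81.0%. The summed level of the secretory epithelium markers was lowest in FA diet + fluoxetine replicate 3 (29211 CPM, median of all libraries 365005). That sum is mostly *Csn2* and *Wap*, transcripts of milk proteins (medians of 160759 and 199152 CPM). The TMM factor of 3.04 lowers every CPM of FA diet + fluoxetine replicate 3, so its drop in this sum is larger in CPM than as a share of counts. *Krt18*, a keratin gene of the same list, was highest of all libraries in this one (149 CPM, median 65.9). The summed fibroblast markers (902 CPM, median 123), macrophage markers (72.7 CPM, median 11.8) and adipocyte markers (848 CPM, median 383) of that library were the highest of all libraries. Most of its adipocyte sum was *Fabp4* (675 CPM, median 182). *Plin1* was also highest there, while *Adipoq*, *Lep* and *Cfd* of the same list were highest in other libraries. FA diet + fluoxetine replicate 3 was highest for 6 replication genes and at a count of 0 for 7 of the 42 genes. FA diet + saline replicate 3 was the highest library for 12 of the 15 mitosis genes and for 17 of the 42 genes. FA diet + fluoxetine replicate 4 was among the 3 highest for 14 of the 15 mitosis genes and 18 of the 23 replication genes. Both had high erythroid markers (159 and 229 CPM, median 57.3), high endothelial markers (51.7 and 53.4 CPM, median 38.3) and T cell markers above the median library (1.64 and 1.95 CPM, median 1.05), while their secretory epithelium markers were low (237811 and 270919 CPM, median 365005) and their markers of B cells and lymph node below the median library (0.786 and 0.977 CPM, median 1.504). The part of these cell types in the results was not tested.

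The rise of *Pold1* with fluoxetine chose these genes, so the fluoxetine values that follow describe the libraries and are not tested. *Pold1* was at 1.49, 2.16 and 3.49 CPM (lowest, median and highest) with breeder diet + saline and at 2.07, 2.79 and 4.30 CPM with breeder diet + fluoxetine. It was at 0.978, 1.80 and 4.97 CPM with FA diet + saline and at 1.82, 4.13 and 6.96 CPM with FA diet + fluoxetine. The fluoxetine medians were above the saline medians on both diets and the ranges overlapped. The highest value was that of FA diet + fluoxetine replicate 3 and the highest among saline libraries that of FA diet + saline replicate 3. The log2 fold change of fluoxetine over saline, averaged over diets, was 0.59 (SE 0.216), or 1.51-fold. It was 0.50 without FA diet + fluoxetine replicate 3 and 0.58 without all 3 libraries, and lay between 0.50 and 0.73 with each library left out in turn.

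**Figure D2:**
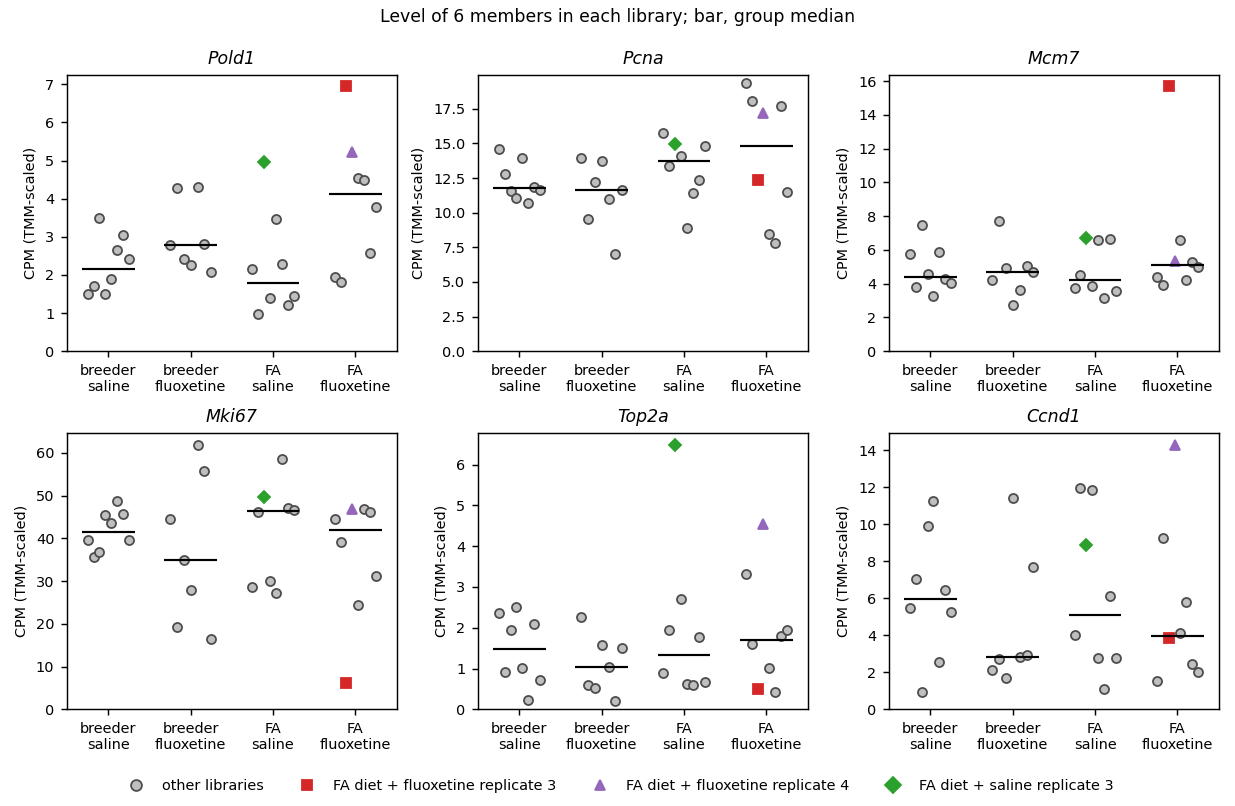
CPM (y axis, from 0, own scale in each panel) of *Pold1*, *Pcna*, *Mcm7*, *Mki67*, *Top2a* and *Ccnd1* in every library of the 4 groups (x axis), with a bar at the group median and coloured marks for the 3 libraries that stood apart. *Pold1* medians were 2.16, 2.79, 1.80 and 4.13 CPM in breeder diet + saline, breeder diet + fluoxetine, FA diet + saline and FA diet + fluoxetine, and *Mki67* of FA diet + fluoxetine replicate 3 lies lowest at 6.17 CPM.

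Among the 5 polymerase and primase genes the fitted fold changes of fluoxetine were all above 0, but those other than *Pold1* were small. *Pold2* and *Pole*, the catalytic subunit of polymerase epsilon, were each at a log2 fold change of 0.08 (SE 0.191 and 0.229). *Pola1* was at 0.04 (SE 0.469), and at -0.17 without FA diet + fluoxetine replicate 3. *Prim1*, the primase that starts each new strand, was lowest of the 5 at 0.01 (SE 0.359), and with each library left out it ranged from -0.14 to 0.22. The SE of each of these 4 was larger than its fold change.

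*Pcna* varied least of the 42 genes, with a coefficient of variation of 23.3% over the 31 libraries, against a median of 68.7%. It was at 10.7, 11.8 and 14.6 CPM with breeder diet + saline and at 6.99, 11.7 and 13.9 CPM with breeder diet + fluoxetine. On the FA diet it was at 8.89, 13.7 and 15.8 CPM with saline and at 7.83, 14.8 and 19.4 CPM with fluoxetine. All 4 ranges overlapped, and the medians with and without fluoxetine lay close together on both diets. The fluoxetine log2 fold change of *Pcna* was -0.01 (SE 0.120), the one nearest 0 of the 3 clamp and loader genes. *Rfc3*, a subunit of the loader that opens the clamp, was at -0.19 (SE 0.261), the lowest of the 3, and *Rfc4*, another loader subunit, at -0.06 (SE 0.209).

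Of the 10 genes of helicase and licensing, 8 had a fluoxetine fold change above 0, with a median log2 value of 0.20. *Mcm3*, a subunit of the helicase ring, was highest at 0.56 (SE 0.306), and *Cdt1*, which loads the ring onto DNA, was lowest at -0.05 (SE 0.204). *Mcm3* was at 0.396, 0.947 and 1.65 CPM with breeder diet + saline and at 0.748, 1.37 and 2.22 CPM with breeder diet + fluoxetine. On the FA diet it was at 0.690, 0.958 and 3.72 CPM with saline and at 0.327, 1.44 and 4.43 CPM with fluoxetine. The *Mcm3* medians were higher with fluoxetine on both diets, the ranges overlapped, and the 2 highest values were those of FA diet + fluoxetine replicate 4 and FA diet + saline replicate 3. *Mcm7* had medians between 4.19 and 5.14 CPM in the 4 groups. Its value in FA diet + fluoxetine replicate 3 was 15.7 CPM, against 7.71 CPM at most in the other libraries, and leaving that library out lowered its coefficient of variation from 44.9% to 26.8%. The fluoxetine log2 fold change of *Mcm7* was 0.17 (SE 0.180), and -0.02 without that library. The other subunits of the ring, *Mcm2*, *Mcm4*, *Mcm5* and *Mcm6*, were at fluoxetine log2 fold changes of -0.02, 0.23, 0.13 and 0.16. *Cdc45* and *Gins2*, which join the ring to make it an active helicase, were at 0.40 (SE 0.510) and 0.26 (SE 0.552), and *Mcm10*, which helps to activate it, at 0.53 (SE 0.429).

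The genes of nucleotide supply lay near 0. *Tk1*, the thymidine kinase of S phase, had a fluoxetine log2 fold change of 0.16 (SE 0.209). The subunits of ribonucleotide reductase were at -0.05 (SE 0.174) for *Rrm1* and -0.01 (SE 0.305) for *Rrm2*. *Lig1*, the ligase that seals the lagging strand, was at 0.28 (SE 0.297), and *Fen1*, which cuts the flaps between its fragments, at -0.33 (SE 0.370). Each of these SEs was larger than its fold change. *Fen1* and *Rrm2* shared 59.0% and 43.3% of their exon bases with a gene on the opposite strand, as *Gins2* (67.3%) and *Aurka* (25.2%) did. The gene opposite *Rrm2*, *Gm59512*, was not in the count files, and that opposite *Fen1*, *Gm10143*, held 267 counts. *Gse1*, opposite *Gins2*, held 2905 counts against 247, and *Fam210b*, opposite *Aurka*, held 27776 counts against 1735. *Rfc4* shared 16.5% with *Eif4a2*, at 65613 counts against 853. Whether reads were counted by strand is not given in the sources used here.

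*Mki67* was at 35.7, 41.6 and 48.7 CPM with breeder diet + saline and at 16.4, 34.8 and 61.9 CPM with breeder diet + fluoxetine. It was at 27.3, 46.4 and 58.5 CPM with FA diet + saline and at 6.17, 41.9 and 46.8 CPM with FA diet + fluoxetine. The groups overlapped, both fluoxetine groups reached lower than the saline groups, and the lowest value of all was that of FA diet + fluoxetine replicate 3. The fluoxetine log2 fold change of *Mki67* was -0.20 (SE 0.198). *Top2a* was at 0.220, 1.48 and 2.52 CPM with breeder diet + saline and at 0.202, 1.03 and 2.27 CPM with breeder diet + fluoxetine. It was at 0.60, 1.33 and 6.47 CPM with FA diet + saline and at 0.421, 1.70 and 4.55 CPM with FA diet + fluoxetine. Its fluoxetine medians were lower on the breeder diet and higher on the FA diet, with ranges that overlapped, and its log2 fold change was -0.24 (SE 0.379), between -0.40 and 0.06 with each library left out.

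Among the other mitosis genes, *Plk1*, a kinase of mitotic entry, had the highest fluoxetine log2 fold change at 0.55 (SE 0.362), and *Kif11*, the motor that pushes the spindle poles apart, the lowest at -0.45 (SE 0.485). *Plk1* was at 0, 0.462 and 1.31 CPM with breeder diet + saline and at 0.532, 1.25 and 1.95 CPM with breeder diet + fluoxetine. On the FA diet it was at 0.599, 0.823 and 2.43 CPM with saline and at 0.131, 0.666 and 2.86 CPM with fluoxetine. Its fluoxetine median was the higher one on the breeder diet and the lower one on the FA diet, and the ranges overlapped on both. The cyclins of mitosis were at 0.15 (SE 0.378) for *Ccna2*, -0.44 (SE 0.582) for *Ccnb1* and 0.07 (SE 0.391) for *Ccnb2*, and *Cdk1*, their partner kinase, at -0.33 (SE 0.369). *Cdc20*, which activates the ligase that ends mitosis, was at -0.04 (SE 0.550). *Bub1* and *Bub1b*, which hold back that ligase at the spindle checkpoint, were at -0.14 (SE 0.700) and -0.19 (SE 0.404). *Aurka* and *Aurkb*, the kinases of the spindle poles and of the centromere, were at -0.08 (SE 0.225) and -0.22 (SE 0.547). *Tpx2*, which activates *Aurka*, was at -0.12 (SE 0.459), and *Birc5*, which works with *Aurkb*, at 0.28 (SE 0.454).

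The 4 genes of G1 to S control went both ways. *Ccne2*, cyclin E2, had a fluoxetine log2 fold change of 0.60 (SE 0.380) and *Ccne1*, cyclin E1, one of -0.41 (SE 0.259). *Ccne2* was at 0.343, 0.464 and 1.41 CPM with breeder diet + saline and at 0.432, 0.890 and 2.29 CPM with breeder diet + fluoxetine, and at 0.0575, 0.641 and 1.01 CPM with FA diet + saline and 0, 0.848 and 1.49 CPM with FA diet + fluoxetine. *Ccne1* had medians of 0.834, 0.787, 1.26 and 1.01 CPM in the same order of groups. The medians with fluoxetine were higher for *Ccne2* and lower for *Ccne1* on both diets, and the ranges of both genes overlapped. *Ccnd1*, which drives G1 phase, was at -0.31 (SE 0.370). It shares 48.4% of its exon bases with *LTO1* on the opposite strand, at 5177 counts against 3972. *E2f1* was at -0.09 (SE 0.193).

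Counted over the groups of genes, 15 of the 23 replication genes had a fluoxetine fold change above 0, with a median log2 value of 0.08, and without *Pold1* 14 of 22 did. Of the 15 mitosis genes 4 did, with a median of -0.14, and of the 4 G1 to S genes 1 did. Over all 14362 genes, 53.5% were above 0 and the median was 0.02. No member passed an FDR of 10% in edgeR's quasi-likelihood test, and the number at an unadjusted p of 0.05 or below was 1, *Pold1*, also by the likelihood ratio test and by DESeq2. Of all genes 0.0209% passed that FDR, and 6.94% were higher and 2.98% lower at that unadjusted p; since this contrast chose the genes, nothing is read from these counts. No other replication gene reached the fold change of *Pold1*, and 11 of the 15 mitosis genes lay below 0.

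Which libraries were in the fit moved the mitosis genes to either side of 0. FA diet + saline replicate 3 and FA diet + fluoxetine replicate 4 were high for these genes, so leaving either out had to lower its own drug group. Without FA diet + saline replicate 3, 9 of the 13 mitosis genes still tested were above 0 with fluoxetine (median log2 value 0.18), and without FA diet + fluoxetine replicate 4, 2 of 13 were (median -0.27). Without FA diet + fluoxetine replicate 3, 5 of 14 mitosis genes (median -0.03) and 13 of 23 replication genes (median 0.07) were. With all 3 libraries left out, *Gins2*, *Ccnb1* and *Bub1* no longer passed the filter, and 14 of 22 replication genes (median 0.02) and 6 of 13 mitosis genes (median -0.02) were above 0. Among single genes, the fluoxetine log2 fold change without the 3 libraries was 0.02 for *Mcm7*, 0.01 for *Mcm5*, 0.02 for *Mcm6* and -0.09 for *Pola1*. It was 0.56 for *Ccnb2* and for *Birc5*, and -0.03 for *Top2a*. *Mcm3* (0.41), *Ccne2* (0.75), *Kif11* (-0.40) and *Ccne1* (-0.36) kept their sign there.

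**Figure D3:**
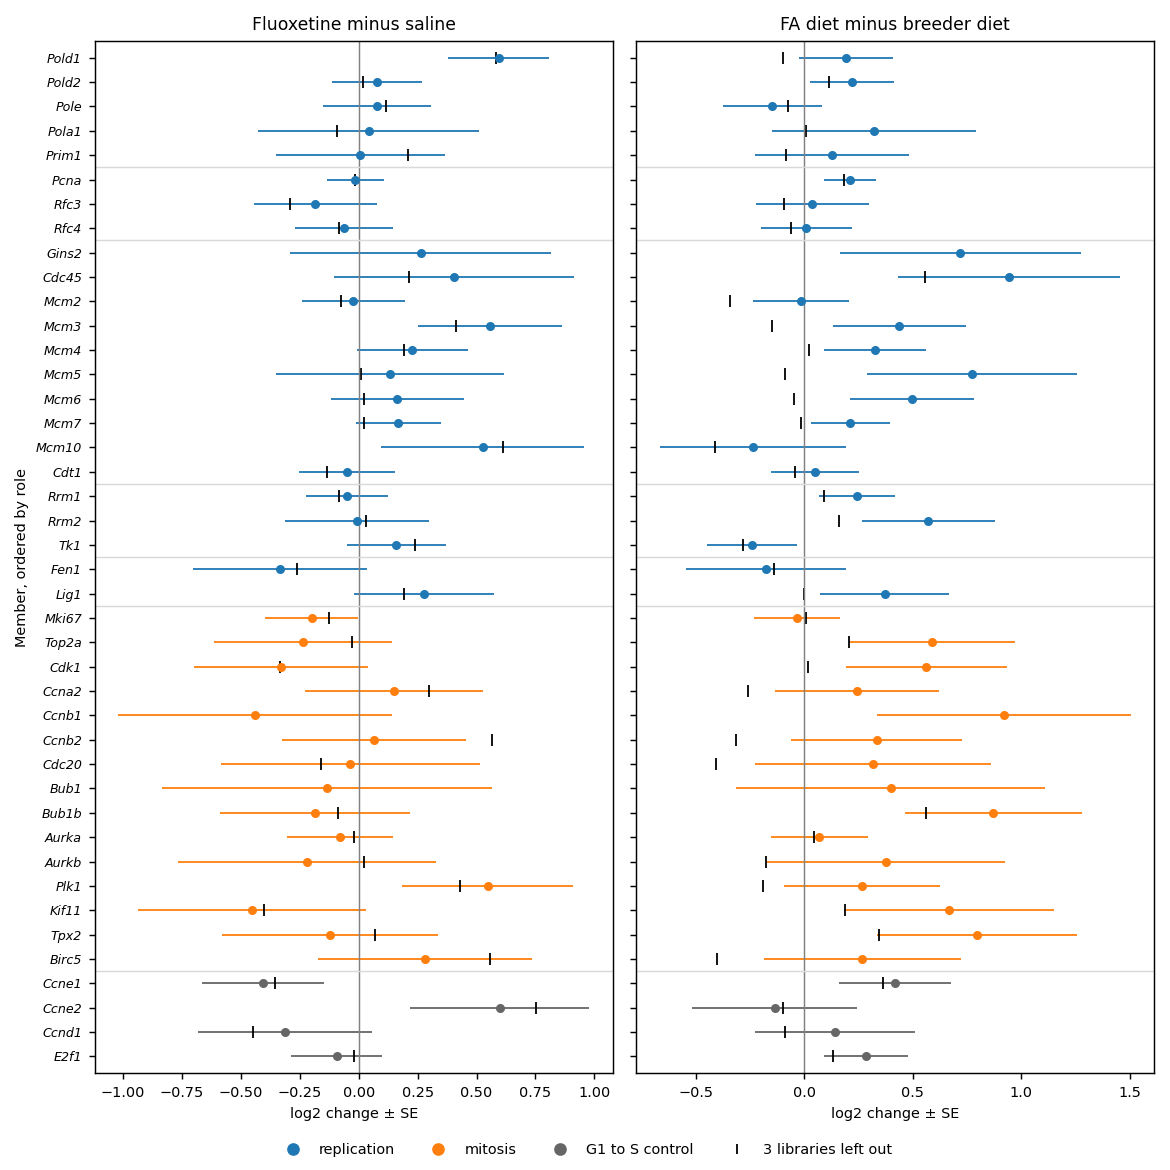
Log2 fold change (x axis) of each of the 42 genes (y axis, ordered by role) for fluoxetine over saline and for FA diet over breeder diet, with points for the fit to all 31 libraries, bars for 1 SE and a black tick for the fit without the 3 libraries that stood apart. *Pold1* is at 0.59 for fluoxetine, and 14 of the 15 mitosis genes lie above 0 for FA in the fit to all libraries against 7 of 13 without those libraries.

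The comparison of diets was not used to choose the genes and was tested. Of the replication genes 18 of 23 had a fold change above 0 on the FA diet, with a median log2 value of 0.21, and of the mitosis genes 14 of 15 did, with a median of 0.38, against 53.9% and a median of 0.02 over all genes. Of the G1 to S genes 3 of 4 did. None of the 42 passed an FDR of 10% in edgeR's quasi-likelihood test, as none of all genes did (0%), and 1 reached an unadjusted p of 0.05 by that test, by the likelihood ratio test and by DESeq2. That gene was *Bub1b*, with a log2 fold change of 0.87 (SE 0.409) and a quasi-likelihood p of 0.0403 (adjusted p = 0.933 by the Benjamini-Hochberg method). Of all genes 2.95% were higher and 2.12% lower at that unadjusted p. *Cdc45* was at 0.94 (SE 0.512) and *Rrm2* at 0.57 (SE 0.307), while *Pold1* was at 0.19 (SE 0.216) and *Mki67* at -0.03 (SE 0.198). The adjusted quasi-likelihood p of edgeR was 0.933 for both *Cdc45* and *Rrm2*. The *Pold1* value was -0.10 without the 3 libraries that stood apart, and that of *Mki67* was 0.05 without FA diet + fluoxetine replicate 3.

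*Bub1b* was at 0, 0.649 and 0.954 CPM with breeder diet + saline and at 0.0592, 0.343 and 0.624 CPM with breeder diet + fluoxetine. It was at 0.311, 0.567 and 1.97 CPM with FA diet + saline and at 0.0437, 0.875 and 1.54 CPM with FA diet + fluoxetine. The median was lower on the FA diet among saline libraries and higher among fluoxetine libraries, the ranges overlapped, and FA diet + saline replicate 3 held the highest value.

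The positive direction of the mitosis genes with FA moved with 2 libraries, both on the FA diet. Both were picked as high for these same genes, so leaving them out had to lower the FA fold changes. The counts that follow give the size of that shift and test nothing. Without FA diet + saline replicate 3, 8 of 13 mitosis genes were above 0 (median log2 value 0.03), and without FA diet + fluoxetine replicate 4, 10 of 13 were (median 0.10). Without both, 5 of 13 mitosis genes were (median -0.09) and 13 of 22 replication genes (median 0.06). Without FA diet + fluoxetine replicate 3 as well, 7 of 13 (median 0.01) and 7 of 22 (median -0.06) were. Leaving out FA diet + fluoxetine replicate 3 alone left 14 of 14 mitosis genes (median 0.42) and 18 of 23 replication genes (median 0.22) above 0. The share of all genes above 0 was 53.8% without FA diet + saline replicate 3 and 54.1% without FA diet + fluoxetine replicate 4. It was 53.8% without both, 49.7% without all 3 and 48.8% without FA diet + fluoxetine replicate 3 alone.

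Summed over the mitosis genes other than *Mki67*, FA diet + saline replicate 3 reached 46.2 CPM and FA diet + fluoxetine replicate 4 reached 37.6 CPM, or 4.54 and 3.69 times the median library, and the next library was at 21.2 CPM. The group medians of this sum on the breeder diet were 11.2 CPM with saline and 9.33 CPM with fluoxetine, and those on the FA diet 9.27 and 10.9 CPM. Each FA group thus had 1 library far above the rest, while the medians of the 4 groups lay close together. The sum over the replication genes was highest in the same libraries, at 96.9 and 112 CPM, and its group medians were 56.0, 56.3, 54.4 and 63.4 CPM in the same order. One of those libraries was a saline and the other a fluoxetine library. Of the 42 genes, 26 had their highest value in 1 of these 2 libraries, 14 of them mitosis genes. *Mki67* was not raised there to a like degree: at 49.7 CPM in FA diet + saline replicate 3 and 46.8 CPM in FA diet + fluoxetine replicate 4, it lay within the 16.4 to 61.9 CPM of the other libraries, FA diet + fluoxetine replicate 3 left aside. *Top2a* was at 6.47 and 4.55 CPM there, above the 3.33 CPM that the other libraries reached at most.

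**Figure D4:**
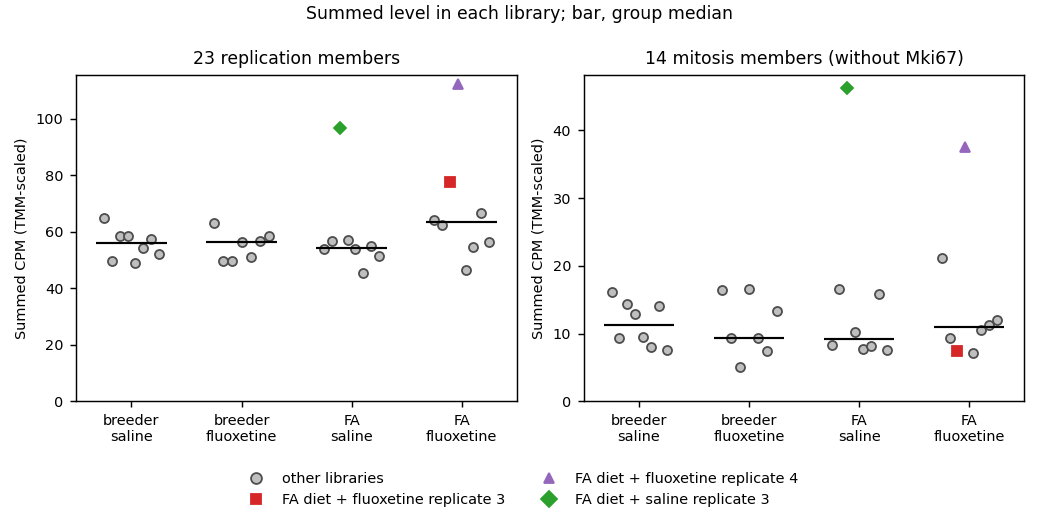
Summed CPM (y axis) of the 23 replication genes and of the 14 mitosis genes other than *Mki67* in every library of the 4 groups (x axis), with a bar at the group median. FA diet + saline replicate 3 and FA diet + fluoxetine replicate 4 lie apart at 46.2 and 37.6 CPM in the mitosis sum, where the group medians are between 9.27 and 11.2 CPM.

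The interaction, the fluoxetine log2 fold change on the FA diet minus that on the breeder diet, was also tested. It was above 0 for 13 of the 23 replication genes (median 0.10) and 6 of the 15 mitosis genes (median -0.02). Over all genes 54.0% were above 0, with a median of 0.03. None of the 42 passed an FDR of 10% in edgeR's quasi-likelihood test, as none of all genes did (0%), and 2 reached an unadjusted p of 0.05 by that test, by the likelihood ratio test and by DESeq2, where 2.65% of all genes were higher and 1.19% lower. They were *Lig1*, at 1.29 (SE 0.598), and *Tk1*, at 0.91 (SE 0.420), each with an adjusted quasi-likelihood p of 0.977 from edgeR. *Plk1* was at -1.15 (SE 0.723), *Pold1* at 0.41 (SE 0.432) and *Mki67* at -0.06 (SE 0.396). Without FA diet + fluoxetine replicate 3 the interaction was 1.03 for *Lig1* and 1.05 for *Tk1*.

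*Lig1* was at 1.17, 1.90 and 2.92 CPM with breeder diet + saline and at 0, 1.22 and 3.30 CPM with breeder diet + fluoxetine. It was at 0.733, 1.35 and 3.54 CPM with FA diet + saline and at 1.41, 2.55 and 6.34 CPM with FA diet + fluoxetine. Its fluoxetine median was the lower one on the breeder diet and the higher one on the FA diet, and the ranges overlapped on both. *Tk1* went the same way, with medians of 3.13 CPM with saline and 2.69 CPM with fluoxetine on the breeder diet and of 2.05 and 3.41 CPM on the FA diet. The *Tk1* ranges overlapped as well, and its lowest value, 0.480 CPM, was in the FA diet + saline group.

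Whether other genes moved with *Pold1* from dam to dam was tested on log2 CPM after the group means were taken off, with permutations within groups (two-sided, adjusted by Benjamini-Hochberg over 156 relations). Those 156 include the relations of *Top2a*, which were added after its values were seen. The adjusted p of *Pold1* and of *Mki67* depend on that choice and were not computed without *Top2a*. Of the 41 other genes only *Plk1* passed an adjusted p of 0.05 with *Pold1* (Pearson r = 0.50, adjusted permutation p = 0.0376, Spearman rho = 0.54, adjusted permutation p = 0.0429). Its r was 0.43 without the 2 libraries farthest from the *Pold1* median and 0.35 (adjusted permutation p = 0.346) without the 3 libraries that stood apart, so the relation did not hold without them. *Ccnb2* (r = 0.55) and *Mcm7* (r = 0.50) came near, each with an adjusted permutation p of 0.0539. The lowest r with *Pold1* was that of *Pcna*, -0.41 (rho = -0.43, adjusted permutation p = 0.173), which became -0.63 (adjusted permutation p = 0.0279) without the 3 libraries. *Aurka* was at r = -0.36 and *Mki67* at r = -0.23 (rho = -0.09, adjusted permutation p = 0.530), which was 0.01 without FA diet + fluoxetine replicate 3. The median r of *Pold1* with the other 22 replication genes was 0.04, and between the 5th and the 95th percentile of all 14361 other genes r with *Pold1* ran from -0.50 to 0.49.

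Among the mitosis genes other than *Mki67*, the median r over 91 pairs was 0.47, against 0.19 over the 231 pairs of replication genes other than *Pold1* and 0.30 over the 308 pairs of 1 gene from each set. The pairs share libraries and genes and are a description. Without FA diet + saline replicate 3 and FA diet + fluoxetine replicate 4 these medians were 0.30, 0.08 and 0.13. *Top2a* passed with 18 of the 41 other genes, all with r above 0, of which 10 were mitosis genes, 7 replication genes and 1 was *E2f1*. Its highest values of r were 0.75 with *Aurkb* (rho = 0.77, adjusted permutation p = 0.000780 for each, from the smallest p that 100000 resamples give), 0.73 with *Ccna2* and 0.73 with *Cdk1*. Over all 14361 other genes, r with *Top2a* ran from -0.40 to 0.44 between the 5th and the 95th percentile, as a description, since the permutations were run for the members and marker lists alone. *Top2a* passed with 5 genes without those 2 libraries and with 7 without all 3.

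No mitosis gene passed with *Mki67*, and its median r with the 14 others was 0.14. With *Top2a*, r was 0.17 (rho = 0.07, adjusted permutation p = 0.659). Only *Pole* passed with *Mki67*, at r = 0.73 (rho = 0.53, adjusted permutation p = 0.0315 and 0.0446), and without FA diet + fluoxetine replicate 3 that r was 0.35 (adjusted permutation p = 0.184). *Aurka* and *Mcm10* were next at r = 0.53 each, and *Mcm7* (-0.58), *Mcm5* (-0.30) and *Pold1* (-0.23) were lowest. Between the 5th and the 95th percentile of all 14361 other genes, r with *Mki67* ran from -0.51 to 0.58, so *Aurka* and *Mcm10* lay within that range. Of the 12 marker lists, *Mki67* passed with the secretory epithelium markers, at r = 0.78 (adjusted permutation p = 0.0473, rho = 0.56, adjusted permutation p = 0.0520). That r was 0.32 without the 2 libraries farthest from the *Mki67* median and 0.41 (adjusted permutation p = 0.322) without FA diet + fluoxetine replicate 3, so it did not pass without that library, while it was 0.62 and passed (adjusted permutation p = 0.0390) without all 3 libraries that stood apart.

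**Figure D5:**
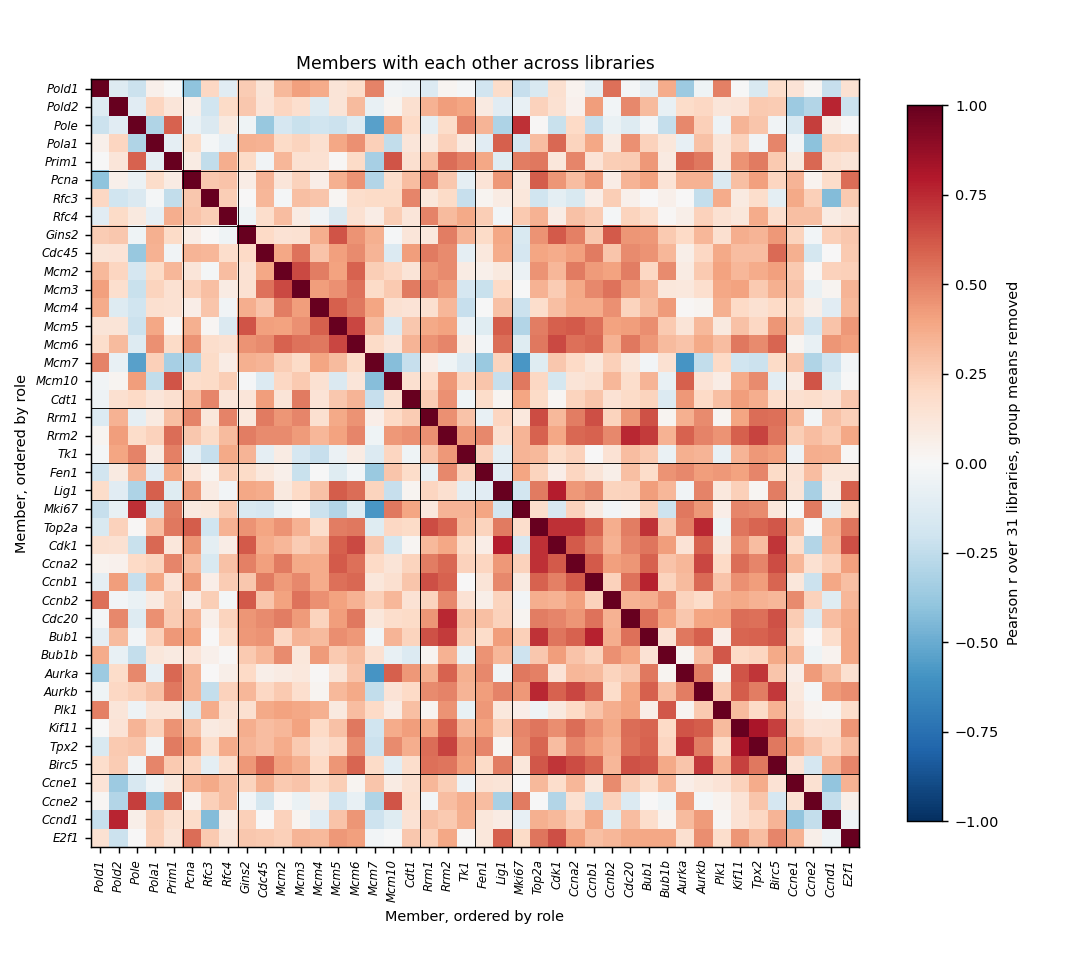
Pearson r (colour, from -1 to 1) between the log2 CPM of every pair of the 42 genes (both axes, ordered by role) over 31 libraries after group means were taken off. The block of mitosis genes other than *Mki67* has a median r of 0.47, while *Mki67* with the other mitosis genes has a median of 0.14 and *Pold1* with the other replication genes one of 0.04.

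Other genes of the same pathways were described from lists of symbols set down with these results known. Of 38 other replication genes that passed the filter, 27 were above 0 for fluoxetine (median log2 value 0.08) and 27 for FA (median 0.10). With fluoxetine, *Rfc2*, a clamp loader subunit, was at 0.32 (SE 0.132) and *Gmnn*, geminin, which holds back licensing, at 0.45 (SE 0.194). With FA, *Tyms*, the enzyme that makes thymidylate with a folate cofactor, was at 0.38 (SE 0.179) and *Prim2*, the large primase subunit, at 0.71 (SE 0.345). Of 34 other mitosis genes, 18 were above 0 for fluoxetine (median 0.03) and 32 for FA (median 0.37). Without FA diet + saline replicate 3 and FA diet + fluoxetine replicate 4, 17 of the 29 still tested were above 0 for FA (median 0.04), against 53.8% of all genes. *Cdc25b*, a phosphatase that switches on *Cdk1*, was at 0.47 (SE 0.340) with fluoxetine, and *Bub3*, a checkpoint protein, was at 0.14 (SE 0.0914) with fluoxetine and at 0.17 (SE 0.0915) with FA. *Nuf2*, a kinetochore protein, was at 1.26 (SE 0.659) with FA. Of 24 other regulators of G1 to S, 18 were above 0 for each of fluoxetine and FA. *Cdk6*, a kinase of G1 phase, was at -0.53 (SE 0.150) and *Tfdp1*, the partner of the E2F factors, at 0.16 (SE 0.0831) with fluoxetine. With FA, *Tfdp1* was at 0.22 (SE 0.0833) and *Cdkn1a*, the inhibitor p21, at -0.75 (SE 0.305). In the interaction, *Anln*, a protein of the cleavage furrow, was at 2.55 (SE 0.952), *Dut*, which removes dUTP, at -0.71 (SE 0.273) and *Orc3*, a subunit of the origin complex, at 0.58 (SE 0.266). *Mybl2*, a factor that acts at CHR sites, was at 1.11, *Cdkn1b*, the inhibitor p27, at 0.49 and *Tfdp1* at 0.27 there. None of these other genes passed an FDR of 10% in any of the 3 comparisons by edgeR's quasi-likelihood test, the likelihood ratio test or DESeq2. The adjusted quasi-likelihood p was 0.933 for each gene named for FA and 0.977 for each gene named for the interaction. At an unadjusted p of 0.05 or below in the quasi-likelihood test for FA, 4 of the 38 other replication genes were higher, 0 of the 34 other mitosis genes were, and of the 24 other G1 to S genes 2 were higher and 1 lower, against 2.95% higher and 2.12% lower of all genes. For the interaction, 1 other replication gene was higher and 1 lower and 1 other mitosis gene was higher, against 2.65% and 1.19% of all genes. For fluoxetine, 3 other replication genes were higher and 1 other G1 to S gene lower, against 6.94% and 2.98% of all genes.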

How the data were processed

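RNA was extracted from mammary gland with the Qiagen RNeasy Micro kit, captured by its poly-A tail and sequenced on a NovaSeq instrument. The submitters' processing notes name FastQC (0.11.7), Trim Galore (0.4.4), HISAT2 and HTSeq with the build GRCm39. The authors deposited whole-number read counts per gene for each library, without normalization. The annotation release and the strand setting are not given in the sources used here. Gene symbols came from GENCODE vM39, which lacked 667 of the 55379 gene identifiers, and exon lengths and overlaps were computed from it.

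Genes were filtered by edgeR 4.0.16 (filterByExpr by group) in R 4.3.3 and libraries normalized by TMM. A model of the 4 groups was fitted to all 31 libraries with robust dispersion estimates. Fluoxetine, FA and their interaction were contrasts tested by quasi-likelihood, with Benjamini-Hochberg adjustment over 14362 genes and an FDR of 10%. SEs are the log2 fold change over the square root of F. Log2 CPM carry a prior count of 2. Correlations used 100000 resamples within groups, and the fits and correlations were tested on simulated data. Promoters were those of RefSeq in GRCm38.p6, used only for their sequences.

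The members and gene lists were chosen with earlier results of these data known. All 42 members are reported. Named with values by group or fold were *Pold1*, *Mki67*, *Top2a*, *Pcna* and the members of highest and lowest fluoxetine fold change in each role, for FA and the interaction the 3 members of smallest p with *Pold1* and *Mki67*, and 2 genes of smallest p per other list and comparison. *Mcm7*, *Ccnd1* and the remaining members were described beyond that rule after their values were seen, as was the correlation of *Top2a*. Alternatives were DESeq2 1.42.0, the likelihood ratio test, a stricter filter (1 CPM in 7 libraries) or none, RLE and upper quartile normalization, the 20 most abundant genes left out, no robust estimation, an additive model, a block on the replicate number and each library left out. Leaving out 2 or 3 libraries together, and FA diet + fluoxetine replicate 3 with the block, were chosen after seeing the data. Total counts from 15412542 to 36000439 set the precision of rare genes, and the spread between dams that of the others. No 2 libraries of the same group held counts within sampling noise of each other (lowest chi-square per degree of freedom 14.9). Libraries of different groups were not compared in this way.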

Additional observations from a re-analysis of the deposited data

Results flagged for a closer look

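In each of the 168 sets of 1 gene and 1 group, the library at either end was compared with the range of its group by Dixon's ratio. It stood apart in 19 sets over 17 genes, 6 high and 13 low, and chance flags about 1 in 20 sets. Values are log2 CPM with a prior count of 2.

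FA diet + fluoxetine replicate 3 stood apart for 6 of the 42 genes. *Mcm7* was high there at 3.99, where the others of the group were between 2.01 and 2.74. Low there were *Mki67* at 2.65 (others 4.62 to 5.55), *Pole* at -1.14 (others 2.04 to 2.74), *Prim1* at -3.25 (others 0.05 to 1.46), *Tk1* at -0.38 (others 1.21 to 2.39) and *Ccne2* at -3.52, a count of 0 (others -0.88 to 0.65). The same library had the lowest summed secretory epithelium markers and the highest summed fibroblast, macrophage and adipocyte markers of all 31. Single markers differed, with *Krt18* highest there and *Adipoq*, *Lep* and *Cfd* highest in other libraries. The part of this in the values was not tested.

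FA diet + saline replicate 3 was high for *Mcm2* at 2.25 (others 0.55 to 1.13), *Mcm3* at 1.93 (others -0.36 to 0.55), *Ccnb2* at 1.94 (others -2.79 to -0.60) and *Plk1* at 1.33 (others -0.54 to 0.15). Breeder diet + fluoxetine replicate 9 had a count of 0 for *Lig1* (others -0.04 to 1.76) and for *Cdk1* (others -0.69 to 0.63), which is -3.52 on this scale for both.

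The remaining sets each concerned another library. *Rfc3* was at -1.82 in FA diet + fluoxetine replicate 5 (others 0.10 to 1.29) and *Bub1b* at -2.93 in FA diet + fluoxetine replicate 10 (others -0.62 to 0.70). *Tk1* was at -0.82 in FA diet + saline replicate 10 (others 0.76 to 1.69) and *Mcm4* at -0.29 in breeder diet + fluoxetine replicate 8 (others 0.70 to 1.34). With breeder diet + saline, *Fen1* was at -2.79 in replicate 4 (others -0.30 to 0.85), *Cdc20* at -2.90 in replicate 6 (others -1.25 to 0.13) and *Ccne2* high at 0.58 in replicate 10 (others -1.22 to -0.63).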

How the results depend on the processing

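In all 134 fits of a contrast, over every test, filter, normalization and library left out, 0 of the 42 members passed an FDR of 10%. Fluoxetine called 3 of all genes by the quasi-likelihood test, 45 by the likelihood ratio test and 70 by DESeq2. With each library left out, the median log2 change lay between 0.00449 and 0.22 (replication) and -0.27 and 0.18 (mitosis) for fluoxetine, and between 0.16 and 0.25 and 0.03 and 0.52 for FA.

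*Pold1* for FA (0.19) was -0.10 without the 3 libraries that stood apart, -0.023 with the replicate block and -0.031 with the block and without FA diet + fluoxetine replicate 3. *Mki67* for FA (-0.03) was 0.0063, 0.077 and 0.12 under the same alternatives in the same order, and between -0.097 and 0.052 with each library left out (0.045 without FA diet + fluoxetine replicate 3). *Mki67* for the interaction (-0.06) was 0.10 without the 3 libraries, 0.10 with the block and without FA diet + fluoxetine replicate 3, and between -0.18 and 0.12 with each library left out (0.09 without that one). The cause was not tested. The additive model gives no interaction. The number of members correlated with *Pold1* was 1, against 2 without FA diet + fluoxetine replicate 3, 2 without the 3 libraries, 2 with group means kept and 3 with RLE. With *Mki67* it was 1, against 0 without FA diet + fluoxetine replicate 3, 0 without the 2 libraries of highest mitosis counts, 0 without all 3 and 3 with group means kept.

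Whether the replicate numbers pair the dams is not given in the sources used here and was not tested. Over 28 pairs of same-numbered libraries from different groups the median correlation was 0.08 and 12 were over 0.1. Over 332 pairs of other numbers the median was -0.01 and 74 were over 0.1. With the block on the number, 0 genes were called for fluoxetine, and the median log2 change of the mitosis members was 0.37 for fluoxetine and 0.16 for FA, and that of the replication members 0.15 and 0.07. The mitosis median for fluoxetine thus changed sign, from below 0 without the block to above 0 with it. *Ccne1* for fluoxetine (-0.41) was 0.16 with the block and 0.29 with the block and without FA diet + fluoxetine replicate 3. Rare members are limited by depth, with 13 below 20 counts per library on average.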
